A study of Mus musculus with 8 samples.

Results

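Streptozotocin (STZ) kills the insulin-making beta cells of the pancreas and so leaves a mouse with type 1 diabetes. The comparison described here set the hypothalamus of STZ mice infused with leptin against that of STZ mice without leptin, over every gene the arrays detected. It used 6 of the 8 samples of the series: 3 labelled STZ with leptin (replicates 6, 7 and 8, called arrays below) and 3 labelled STZ (arrays 1, 2 and 3), with the 2 saline controls (arrays 4 and 5) as a baseline. All mice were males of 12 to 15 weeks and of a strain given only as mixed. STZ was injected repeatedly into the peritoneum, and leptin was infused continuously, centrally according to the design text. The dose and duration of leptin, and whether the STZ mice received a vehicle infusion, are not given in the sources used here. Blocks of hypothalamus were cut from fresh brain, and 300 ng of RNA per sample was labelled for Illumina mouse bead arrays, 1 array a sample. No label says that each array held a separate animal, so a p-value below rests on the spread among these arrays alone, and that spread may be technical.

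Leptin is a hormone of fat tissue that reports energy stores to the hypothalamus. Its receptor activates the kinase JAK2 and the transcription factor STAT3, which induces SOCS3, an inhibitor of the same receptor. Cytokines and interferons use related kinases: interferon gamma acts on genes through palindromes called GAS elements, and interferons also act through elements called ISRE. Their targets include GTPases that attack intracellular pathogens, the machinery that loads peptides on MHC molecules, and chemokines that draw in T cells.

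Values are normalised probe intensities on a log2 scale, and ± is the moderated standard error of limma (n = 3 arrays a group). Between 13608 and 14776 probes were detected per array. The hypothalamic peptides Pmch (12.69 to 13.95), Hcrt (10.14 to 12.20) and Oxt (11.27 to 12.50) were bright on all 8 arrays. Correlations were at least 0.982 among leptin arrays, at least 0.969 among STZ arrays and 0.956 to 0.972 between these groups. STZ array 1 lay nearest to saline in several inflammatory lists. STZ array 2 held pituitary transcripts, with Gh at 14.98 and Prl at 14.93, against 4.36 to 6.43 in the leptin arrays. The description of STZ array 3 repeats the replicate number of array 1, although its title names it STZ.

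Of 10703 genes tested, 614 (5.74 percent) passed at an adjusted p under 0.05 in limma, 395 lower in STZ with leptin (3.69 percent) and 219 higher (2.05 percent). Counted by probe, 870 of 15494 passed (5.62 percent), 534 lower (3.45 percent) and 336 higher (2.17 percent). Of the 614 genes 351 differed at least 2-fold, 247 lower and 104 higher, while the median over all genes tested was 0.03. Lower genes numbered 621 when STZ array 1 was left out, 232 or 208 when STZ array 2 or 3 was, and 260 or 242 when leptin array 6 or 7 was. Higher genes numbered 143 or 130 when STZ array 2 or 3 was left out, and 143 or 137 when leptin array 6 or 7 was. The saline arrays also add to the shared estimate of spread, and with only the leptin and STZ groups fitted 285 genes were lower and 152 higher. A narrower group of 279 genes passed with 1 sign without each array in turn, with no overlap of leptin and STZ arrays. It also passed under each other normalization, filter and model in which the probe was tested, apart from the replicate block and the mean of probes, which were not required. With the replicate block, a term for the replicate numbers of the descriptions, 314 of the 614 genes passed too. This narrower group held 175 lower genes (1.64 percent of those tested) and 104 higher genes (0.972 percent), and is called the steady set here.

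The steady set divided by where STZ stood against saline. In 165 genes STZ lay more than 0.5 log2 units from saline, and of these 154 were lower with leptin and 11 higher. In the other 114 genes STZ lay within 0.5 of saline, and 93 were higher with leptin and 21 lower. The leptin mean lay above saline in all 93 and below it in all 21. Of these, 77 and 15 also passed against saline in limma. This division reads the STZ arrays that the comparison also uses, so the direction within a class is no independent evidence. All 154 lower genes of the first class had STZ above saline. Their median distance from saline was 0.56, 0.27 and 0.54 in leptin arrays 6, 7 and 8, against 1.77, 2.11 and 1.92 in STZ arrays 1, 2 and 3. The leptin mean was above saline in 123 of the 154, and 30 of them passed as higher than saline in limma.

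**Figure D1:**
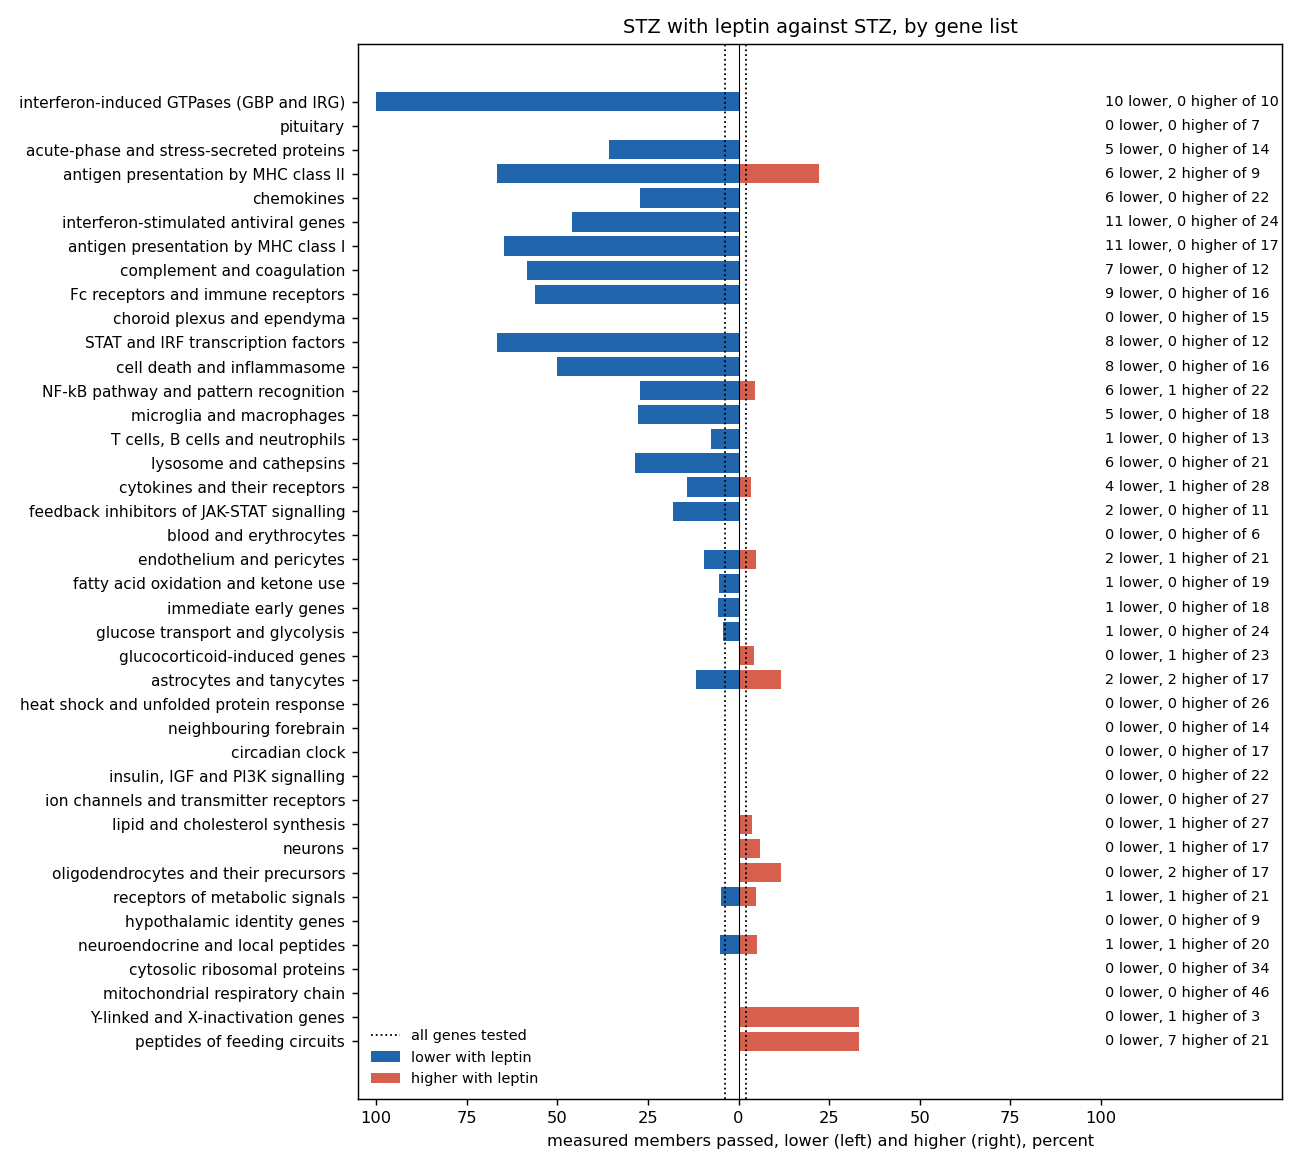
Percent of measured members of 40 gene lists that passed in limma, lower in STZ with leptin to the left and higher to the right, ordered by median log2 difference, with dotted lines at the 3.69 and 2.05 percent of all genes tested. The interferon-induced GTPases reach 100 percent on the lower side, and the feeding peptides (7 of 21) stand on the higher side.

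The interferon-induced GTPases, which attack the vacuoles of intracellular pathogens, were lower with leptin in every measured case. In this list 10 of 10 measured members fell and 0 rose (median difference -2.90), and the count was 10 without any 1 array. The immunity-related GTPase Igtp stood at 9.45, 8.47 and 8.87 in STZ with leptin, 12.76, 12.92 and 12.66 in STZ and 6.83 and 6.92 in saline. Leptin arrays lay more than 3 units below every STZ array and still above saline, and the difference of -3.85 ± 0.23 was 14.4-fold (adjusted p = 3.0e-05 in limma). Ifi47, of the same family, stood at 7.33, 6.67 and 7.13 in STZ with leptin, 10.27, 10.79 and 10.57 in STZ and 5.44 and 5.02 in saline. The guanylate-binding protein gene Gbp2 stood at 10.45, 9.62 and 10.37 in STZ with leptin, 13.10, 13.44 and 13.11 in STZ and 8.19 and 8.37 in saline. Neither showed overlap, with differences of -3.50 ± 0.21 and -3.07 ± 0.22. With leptin Igtp, Ifi47 and Gbp2 still exceeded saline by 2.05 (adjusted p = 0.0032), 1.82 (adjusted p = 0.0044) and 1.86 (adjusted p = 0.0050) in limma.

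The brightest probe of Irgm1, a regulator of the family, differed by -1.09, the smallest of the 10, near the top of the intensity scale; its other probes differed by -3.31 and -1.11. Tgtp1, a T-cell-specific GTPase, was at least 3.45-fold lower, because no leptin array detected it. The guanylate-binding gene Gbp2b, outside the list, was 13.4-fold lower (-3.74 ± 0.28, adjusted p = 0.00012 in limma). Where several probes were tested, the differences from the brighter to the dimmer probe were -3.07 and -1.09 for Gbp2, whose dimmer probe no leptin array detected, -2.52 and -2.45 for Gbp3, -2.72 and -1.97 for Gbp7 and -2.56 and -2.43 for Ifi202b, a DNA-sensing interferon gene. The dimmer Ifi202b probe and the Irgm1 probe at -1.11 were each detected on only 3 of the 8 arrays. Summed linear intensity of the list was 7006 to 9416 with leptin, 33313 to 42382 in STZ and 4221 to 4781 in saline, so the leptin sums lay between the other groups. Fewer cells of a type and less RNA per cell cannot be told apart in such tissue blocks.

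Promoters of 4 lowered interferon genes are shown because they carry the elements through which interferons are known to act. Each window spans 250 bases before to 50 after the gene's start (RefSeq, GRCm38.p6), 5′ to 3′ on the gene's strand. Capitals mark matches to GAS (TTCNNNGAA) or ISRE (GAAA, any 2 bases, then GAAA), searched on both strands. Igtp lies at chr11:58199306-58199605 (plus strand), Gbp2 at chr3:142620413-142620712 (plus), Irf1 at chr11:53769764-53770063 (plus) and Cxcl10 at chr5:92348840-92349139 (minus).
Igtp: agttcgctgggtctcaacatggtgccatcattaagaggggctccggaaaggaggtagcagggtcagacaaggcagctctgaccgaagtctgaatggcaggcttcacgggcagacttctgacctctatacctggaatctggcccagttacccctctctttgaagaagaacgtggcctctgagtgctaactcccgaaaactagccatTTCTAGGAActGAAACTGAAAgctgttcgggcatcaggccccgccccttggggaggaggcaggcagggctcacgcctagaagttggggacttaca
Gbp2: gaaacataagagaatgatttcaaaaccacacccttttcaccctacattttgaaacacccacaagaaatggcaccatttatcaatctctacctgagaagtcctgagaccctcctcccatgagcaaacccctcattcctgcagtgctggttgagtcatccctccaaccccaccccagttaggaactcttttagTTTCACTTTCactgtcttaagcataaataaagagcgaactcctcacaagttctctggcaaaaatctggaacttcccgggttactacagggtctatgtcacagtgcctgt
Irf1: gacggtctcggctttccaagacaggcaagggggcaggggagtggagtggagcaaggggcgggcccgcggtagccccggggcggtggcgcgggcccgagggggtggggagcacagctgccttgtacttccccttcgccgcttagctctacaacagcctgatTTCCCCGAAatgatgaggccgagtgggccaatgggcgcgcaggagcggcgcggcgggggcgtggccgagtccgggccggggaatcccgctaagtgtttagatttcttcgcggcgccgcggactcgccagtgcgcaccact
Cxcl10: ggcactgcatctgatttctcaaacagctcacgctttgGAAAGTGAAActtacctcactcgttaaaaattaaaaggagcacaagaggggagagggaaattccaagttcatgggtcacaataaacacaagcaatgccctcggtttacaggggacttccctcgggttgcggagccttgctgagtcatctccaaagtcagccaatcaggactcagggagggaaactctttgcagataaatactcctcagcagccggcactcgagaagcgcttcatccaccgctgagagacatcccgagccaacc
The Igtp window holds 1 match to each element, those of Gbp2 and Cxcl10 hold 1 ISRE and that of Irf1 holds 1 GAS. The windows of Cxcl9, which was lower with leptin, and Hsd11b1, which was higher, were searched too and held neither element. Where several windows were listed for a gene, as the 2 of Irf1, only the first was used here. Over the windows of all 27025 genes, taken from 32851 listed, GAS was in 8.47 percent and ISRE in 3.49 percent. Over the 8680 genes tested that have a window the shares were 6.75 and 3.11 percent. Of the 154 lowered genes with STZ above saline 117 have a window, and 17.1 percent held GAS and 17.9 percent ISRE. One or the other was in 34 of these 117 (29.1 percent), against 9.40 percent of the genes tested, so most lowered genes held neither. Of the GTPases 9 have a window, of which 8 held ISRE and 5 GAS. In the steady genes with STZ near saline, 96 with a window, the shares were 6.25 and 4.17 percent. A match describes letters only, and these shares were not tested.

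**Figure D2:**
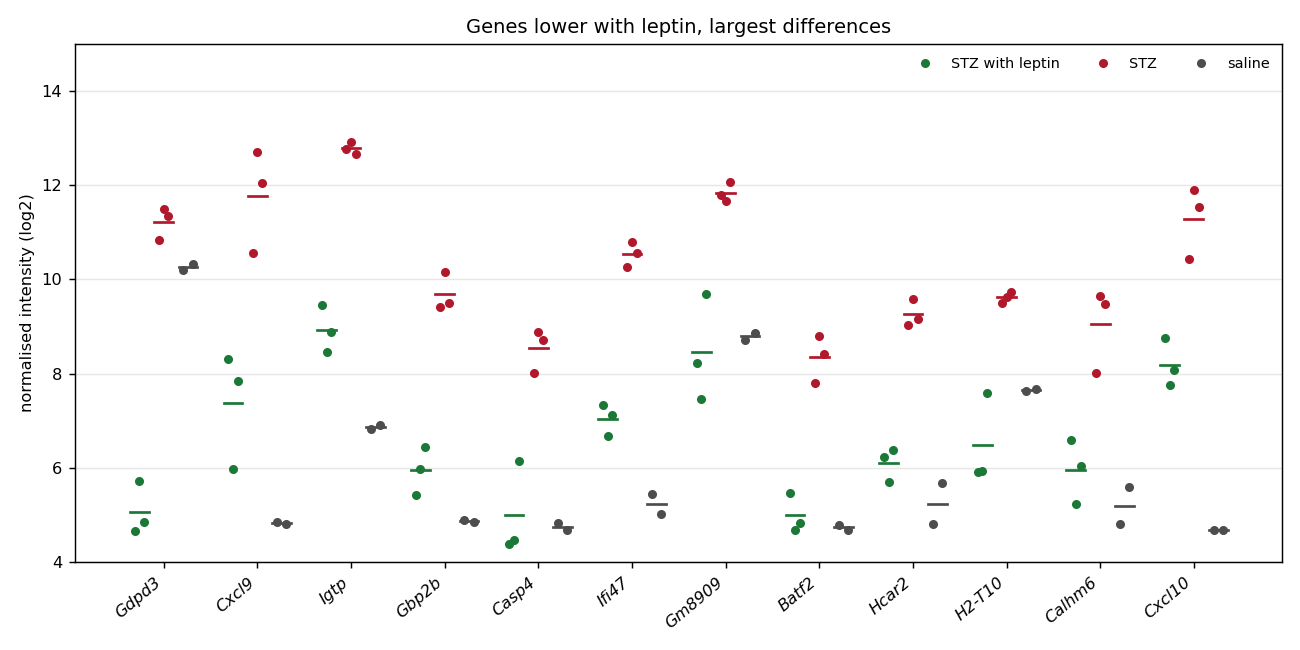
Normalised log2 intensity of the 12 steady genes with the largest lower differences among those with STZ away from saline, 1 point an array and a bar at each group mean. For each gene the 3 leptin arrays lie below the 3 STZ arrays, and in Gdpd3 the saline arrays lie near STZ, at 10.19 and 10.33.

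Transcription factors of the interferon response were lower too. Among STAT and IRF genes 8 of 12 measured members fell and 0 rose (median difference -0.92), with a median of -0.90 when undetected genes are set at their bound. Omitting STZ array 2 or 3, saline array 4 or 5 or leptin array 7 or 8 left 5 that fell. Irf1, which interferon gamma induces early, stood at 10.11, 9.55 and 10.12 in STZ with leptin, 12.67, 12.92 and 12.61 in STZ and 9.12 and 9.19 in saline. The groups did not overlap, the difference was -2.81 ± 0.18 (adjusted p = 4.8e-05 in limma), and the 5 probes of Irf1 all belonged to the steady set, at -2.81, -2.95, -2.80, -2.69 and -1.45. The probe at -1.45 was detected on only 3 of the 8 arrays. Irf8, a factor of myeloid cells, differed by -1.52 ± 0.17, Irf9, a DNA-binding partner of STAT proteins, by -1.30 ± 0.14, Irf5 by -1.07 ± 0.14 and Stat2 by -1.14 ± 0.21. Batf2, an interferon-induced factor outside the list, stood at 5.47, 4.69 and 4.83 in STZ with leptin, 7.81, 8.80 and 8.42 in STZ and 4.78 and 4.69 in saline, and was detected on 1 of 3 leptin arrays, 3 of 3 STZ arrays and 0 of 2 saline arrays.

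Among antiviral genes 11 of 24 measured members fell and 0 rose (median difference -1.17), and 18 of the 24 had no overlap between leptin and STZ arrays, against 11.8 percent of all genes tested. Without each array in turn 8 of them fell every time. Samhd1, which depletes nucleotides, stood at 6.98, 6.87 and 7.38 in STZ with leptin, 8.61, 9.33 and 8.91 in STZ and 6.39 and 6.03 in saline, a difference of -1.87 ± 0.22 with no overlap. Dhx58 and Ddx58, sensors of viral RNA, differed by -1.40 ± 0.15 and -1.10 ± 0.13, and Parp14, an ADP-ribosyltransferase family gene, by -2.27 ± 0.20. Oas1g differed by -1.69 at its brightest probe and by 0.19 at another. Isg15, a ubiquitin-like interferon product, stood at 9.11, 9.14 and 7.38 in STZ with leptin, 8.95, 11.41 and 10.44 in STZ and 6.70 and 6.92 in saline. Its groups overlapped and it did not pass (adjusted p = 0.17 in limma, 0.038 without STZ array 1).

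Genes that load peptides on MHC class I were mostly lower. Here 11 of 17 measured members fell and 0 rose (median difference -1.10), and 10 fell without each array in turn. The peptide transporter Tap1 stood at 5.89, 4.99 and 5.42 in STZ with leptin, 7.81, 8.30 and 7.79 in STZ and 4.51 and 4.97 in saline, 5.78-fold lower with leptin and without overlap. Its partner Tap2 differed by -2.24 ± 0.19, the immunoproteasome subunits Psmb8 and Psmb9 by -2.42 ± 0.24 and -2.56 ± 0.32, and Nlrc5, the activator of class I genes, by -2.15 ± 0.22 with detection on 1 of 3 leptin arrays, 3 of 3 STZ arrays and 0 of 2 saline arrays. The classical class I gene H2-D1 differed by -2.27 ± 0.31 and the nonclassical H2-M3 by -1.47 ± 0.17. B2m, the shared light chain, had 13.39, 12.85 and 13.09 in STZ with leptin, 13.54, 14.22 and 14.21 in STZ and 11.36 and 11.72 in saline at its brightest probe. This probe did not pass (-0.88 ± 0.22, adjusted p = 0.059 in limma), while its other probe, of like brightness, differed by -1.02 and passed. Class I genes are near-identical copies, so a probe may read more than 1 of them. H2-Q7 was lost without STZ array 3.

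The MHC class II list moved both ways: 6 of 9 measured members fell and 2 rose (median difference -1.77), with a median of -1.34 at the bounds. Leaving out STZ array 2 or 3 gave 3 that fell. Ciita, the master activator of class II genes, was at least 2.54-fold lower and H2-DMb1, which edits peptides on class II, stood at 7.10, 6.65 and 7.83 in STZ with leptin, 9.36, 10.04 and 9.86 in STZ and 6.66 and 6.91 in saline. The class II chain H2-Ab1 and the invariant chain Cd74 were lower (-2.87 ± 0.61 and -2.20 ± 0.51), but each was lost without STZ array 2 or 3, saline array 4 or 5 or leptin array 6. The chains H2-Aa and H2-Eb1 were higher: H2-Eb1 stood at 9.29, 7.93 and 9.41 in STZ with leptin, 5.97, 5.85 and 6.42 in STZ and 4.73 and 4.79 in saline, 6.92-fold higher without overlap, and H2-Aa at 9.07, 7.47 and 9.25 in STZ with leptin, 4.60, 4.88 and 5.63 in STZ and 4.68 and 4.40 in saline. H2-Aa was detected on 3 of 3 leptin arrays, 1 of 3 STZ arrays and 0 of 2 saline arrays.

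The chemokines Cxcl9 and Cxcl10 fell and belonged to the steady set, while most chemokines and acute-phase genes did not pass. Among chemokines 6 of 22 measured members fell and 0 rose (median difference -1.27). With STZ array 1 left out 12, with STZ array 2 or 3 or leptin array 7 left out 2, with saline array 4 or 5 or leptin array 6 left out 3 fell. Cxcl9, which attracts T cells and is induced by interferon gamma, stood at 8.30, 5.98 and 7.85 in STZ with leptin, 10.56, 12.70 and 12.04 in STZ and 4.85 and 4.80 in saline. Cxcl10, a second ligand of the same receptor, stood at 8.75, 7.75 and 8.07 in STZ with leptin, 10.44, 11.90 and 11.53 in STZ and 4.67 and 4.67 in saline. Leptin arrays lay below STZ arrays and above saline in both, with differences of -4.39 ± 0.65 (adjusted p = 0.0049) and -3.10 ± 0.37 (adjusted p = 0.0017) in limma.

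Among cytokines and their receptors 4 of 28 measured members fell and 1 rose (median difference -0.44), with a median of -0.34 at the bounds. Omitting STZ array 1 left 10 and STZ array 2 or 3 or leptin array 7 left 2 that fell. Il1a was at least 2.49-fold lower and the interleukin 10 receptor Il10ra differed by -1.13 ± 0.17. Il6st, the shared gp130 subunit of interleukin 6 receptors, stood at 8.28, 8.10 and 7.92 in STZ with leptin, 5.49, 5.71 and 5.11 in STZ and 5.30 and 4.99 in saline, higher than both other groups. In the acute-phase list 5 of 14 measured members fell and 0 rose (median difference -1.83), and Orm2, Saa3, Lbp, Cp and Fgl2 were the members that passed. Leaving out STZ array 1 gave 11, STZ array 2 gave 2, STZ array 3 gave 0, leptin array 6 or 8 gave 3 and leptin array 7 gave 1 that fell. Lcn2, an iron-scavenging protein of inflammation, had 12.23, 10.40 and 11.50 in STZ with leptin, 12.02, 14.55 and 14.29 in STZ and 4.86 and 4.56 in saline. Its groups overlapped (adjusted p = 0.093 in limma, 0.0071 without STZ array 1).

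**Figure D3:**
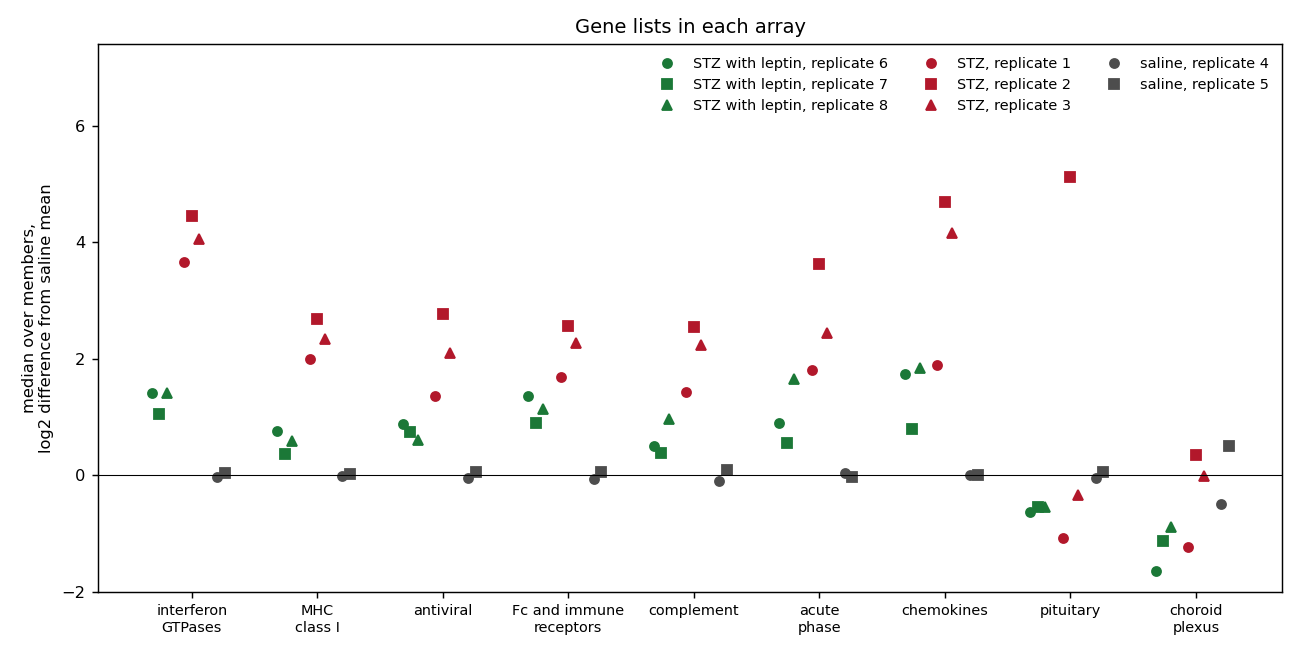
Median over the members of 9 lists of the log2 difference from the saline mean, 1 point an array, leptin left of STZ left of saline. The GTPases stand at 1.40, 1.05 and 1.41 in leptin arrays and at 3.65, 4.45 and 4.06 in STZ arrays, while the pituitary list reaches 5.11 in STZ array 2.

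Socs3, the feedback inhibitor of leptin and cytokine receptors, stood at 8.68, 8.62 and 8.43 in STZ with leptin, 9.68, 11.08 and 10.64 in STZ and 6.59 and 6.73 in saline, so leptin arrays lay between both other groups. The difference from STZ was -1.89 ± 0.30 (adjusted p = 0.0079 in limma), and leptin exceeded saline by 1.92 (adjusted p = 0.022). Among JAK-STAT feedback inhibitors 2 of 11 measured members fell and 0 rose (median difference -0.33), with a median of -0.17 at the bounds. The members were Socs3 and the phosphatase Ptpn6, which was lost without STZ array 2 or 3. With STZ array 2 or 3 left out 1 fell. Stat3 had 9.38, 9.01 and 9.50 in STZ with leptin, 10.02, 10.36 and 9.69 in STZ and 9.05 and 8.84 in saline, without overlap. Its brightest probe did not pass (-0.72 ± 0.20, adjusted p = 0.076 in limma), and its 3 probes differed by -0.72, -0.88 and -0.59, of which the second passed. Cd274, the checkpoint ligand PD-L1, stood at 8.93, 8.07 and 8.61 in STZ with leptin, 11.55, 11.68 and 11.40 in STZ and 7.53 and 7.61 in saline, 8.05-fold lower with leptin.

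Among Fc and immune receptors 9 of 16 measured members fell and 0 rose (median difference -0.99). Omitting STZ array 3 left 5 that fell. Leaving out leptin array 7 gave 1 that rose. The activating Fc receptors Fcgr1 and Fcgr3 differed by -1.72 ± 0.24 and -1.65 ± 0.25, and the co-stimulators Cd40 and Cd86 by -1.79 ± 0.27 and -0.96 ± 0.13. Among cell death genes 8 of 16 measured members fell and 0 rose (median difference -0.69). With STZ array 3 left out 5 fell. The necroptosis effector Mlkl was at least 4.17-fold lower, and Casp1, the inflammasome protease, stood at 8.56, 8.14 and 8.90 in STZ with leptin, 10.21, 10.65 and 10.82 in STZ and 7.33 and 7.28 in saline without overlap. Gsdmd, the pore-forming gasdermin D, differed by -1.64 ± 0.18 and Casp8 by -1.10 ± 0.16. Casp4 differed by -3.54 at its brightest probe, detected on 1 of 3 leptin arrays, 3 of 3 STZ arrays and 0 of 2 saline arrays, and by -1.98 and 0.01 at others.

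In pattern recognition and NF-kB genes 6 of 22 measured members fell and 1 rose (median difference -0.60), with a median of -0.55 at the bounds. The receptors Tlr2 and Tlr6 differed by -1.45 ± 0.22 and -1.77 ± 0.22 and their adaptor Myd88 by -1.26 ± 0.17. The inhibitor Nfkbib differed by 1.65 ± 0.19, with its STZ mean within 0.5 of saline. In complement genes 7 of 12 measured members fell and 0 rose (median difference -1.02). Omitting STZ array 2 or leptin array 7 left 2, STZ array 3 left 3 and saline array 4 or 5 or leptin array 6 left 4 that fell. Serping1, the inhibitor of the first complement component, stood at 9.12, 8.94 and 9.62 in STZ with leptin, 10.62, 11.81 and 11.39 in STZ and 8.41 and 8.67 in saline and fell without each array in turn. In lysosome genes 6 of 21 measured members fell and 0 rose (median difference -0.47). Leaving out STZ array 1 gave 10 that fell. Grn, Gusb and Ctss, a precursor of granulins, a glucuronidase and a cathepsin, differed by -1.06 ± 0.15, -0.87 ± 0.14 and -0.94 ± 0.15. Other probes of Gusb differed by -1.23 and 0.11. Outside the lists Hcar2, a receptor of ketone bodies and niacin, stood at 6.23, 5.71 and 6.38 in STZ with leptin, 9.03, 9.59 and 9.16 in STZ and 4.80 and 5.67 in saline, 8.91-fold lower without overlap. Calhm6 was 8.58-fold lower, with detection on 2 of 3 leptin arrays, 3 of 3 STZ arrays and 1 of 2 saline arrays.

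Markers of cell types are given next, beside 3.69 percent of all genes tested that fell and 2.05 percent that rose. Their part in the results was not tested. Among microglia and macrophage markers 5 of 18 measured members fell and 0 rose (median difference -0.52). With STZ array 2 or 3 or leptin array 7 left out 3 fell. Their summed intensity was 12932 to 17456 with leptin, 26767 to 31228 in STZ and 7005 to 7424 in saline, so the leptin sums lay between the other groups. Tmem119, a microglial surface marker, differed by -0.95 ± 0.16, and P2ry12, a microglial receptor, stood at 7.51, 8.04 and 7.98 in STZ with leptin, 10.46, 9.84 and 10.21 in STZ and 10.33 and 10.27 in saline, with leptin below both other groups. In T cell, B cell and neutrophil markers 1 of 13 measured members fell and 0 rose (median difference -0.49), and summed intensity was 18088 to 18636 with leptin, 16952 to 25712 in STZ and 17817 to 19032 in saline, with overlap. Omitting STZ array 1 left 4 and STZ array 2 or 3, saline array 4 or 5 or leptin array 6, 7 or 8 left 0 that fell. In astrocyte markers 2 of 17 measured members fell and 2 rose (median difference -0.08). Leaving out STZ array 2, saline array 4 or 5 or leptin array 6 gave 1 and STZ array 3 gave 0 that fell. With STZ array 1, saline array 4 or 5 or leptin array 8 left out 1, with STZ array 2 or 3 or leptin array 6 or 7 left out 0 rose. Gfap and Vim fell (-1.32 ± 0.29 and -1.57 ± 0.27), without passing in every fit: Gfap was lost without STZ array 1, 2 or 3, saline array 4 or 5 or leptin array 6, and Vim without STZ array 3. In endothelial markers 2 of 21 measured members fell and 1 rose (median difference -0.20), with a median of -0.12 at the bounds. Omitting STZ array 3 left 1 that fell. The adhesion molecule Vcam1 differed by -1.14 ± 0.19. The transporter Slco1a4 was at least 2.39-fold higher, with its STZ mean within 0.5 of saline.

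Markers of tissue next to the hypothalamus spread widely within groups. Among choroid plexus and ependymal markers 0 of 15 measured members fell and 0 rose (median difference -0.98), and summed intensity was 6025 to 17306 with leptin, 4965 to 43405 in STZ and 23226 to 42560 in saline. Leaving out STZ array 1 gave 8 and leptin array 8 gave 1 that fell. Ttr, the main choroid plexus product, had 9.62, 9.86 and 11.97 in STZ with leptin, 8.74, 14.77 and 14.84 in STZ and 13.71 and 14.75 in saline. The pituitary list, in which 0 of 7 measured members fell and 0 rose (median difference -2.07), or -1.74 at the bounds, summed to 479 to 682 with leptin, 350 to 80671 in STZ and 765 to 1314 in saline, with the highest value in STZ array 2. With STZ array 2 left out 1 rose. Blood markers, of which 0 of 6 passed (1 was higher without leptin array 8), summed to 14195 to 21257 with leptin, 9076 to 38967 in STZ and 13100 to 18068 in saline. Neuronal markers summed to 105743 to 108063 with leptin, 94023 to 117394 in STZ and 114161 to 119364 in saline. Map2, a microtubule protein, was the neuronal marker that passed (0.54 ± 0.13) and was lost without STZ array 2 or 3, saline array 4 or 5 or leptin array 6, 7 or 8. None of 9 hypothalamic identity genes or 14 genes of neighbouring forebrain passed in limma, against 1 and 0 at an unadjusted p under 0.05. For the choroid plexus, pituitary and blood lists those counts were 8, 0 and 0.

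Genes higher with leptin formed no long list among those with STZ away from saline. The 11 steady ones had medians from saline of 0.28, 0.48 and 0.37 in leptin arrays, against -0.74, -0.67 and -0.83 in STZ arrays. Hsd11b1, the enzyme that reactivates glucocorticoids inside cells, stood at 10.95, 11.10 and 11.04 in STZ with leptin, 9.83, 9.55 and 9.96 in STZ and 10.64 and 10.50 in saline. Leptin arrays lay above both other groups, the difference was 1.25 ± 0.14 (adjusted p = 0.0014 in limma), and its 3 probes differed by 1.25, 1.30 and 1.31. It was the member that passed among 23 glucocorticoid-related genes, where 0 fell. Omitting STZ array 1 left 4 that fell. Ret, the receptor of GDNF-family ligands, stood at 7.98, 8.11 and 8.15 in STZ with leptin, 6.79, 6.77 and 6.41 in STZ and 7.52 and 7.20 in saline. The muscarinic receptor Chrm2 was 2.58-fold higher and the gastrokine gene Gkn3 2.54-fold higher.

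Oligodendrocyte markers held 2 of them among 17, and 0 fell. Enpp6, a choline phosphodiesterase of newly formed oligodendrocytes, stood at 9.16, 9.23 and 9.04 in STZ with leptin, 8.25, 8.02 and 7.93 in STZ and 9.06 and 9.12 in saline. Opalin, a membrane protein of myelinating cells, stood at 11.62, 11.56 and 11.40 in STZ with leptin, 10.41, 9.82 and 10.65 in STZ and 10.99 and 11.34 in saline. Neither had overlap of leptin with STZ, with differences of 1.08 ± 0.13 and 1.23 ± 0.21, while the summed intensity of the list, 93918 to 109621 with leptin, 92342 to 102749 in STZ and 99562 to 102403 in saline, overlapped between groups. Cort, the peptide cortistatin, was at least 1.72-fold higher, and Cckbr, a cholecystokinin receptor, differed by 1.16 ± 0.14.

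**Figure D4:**
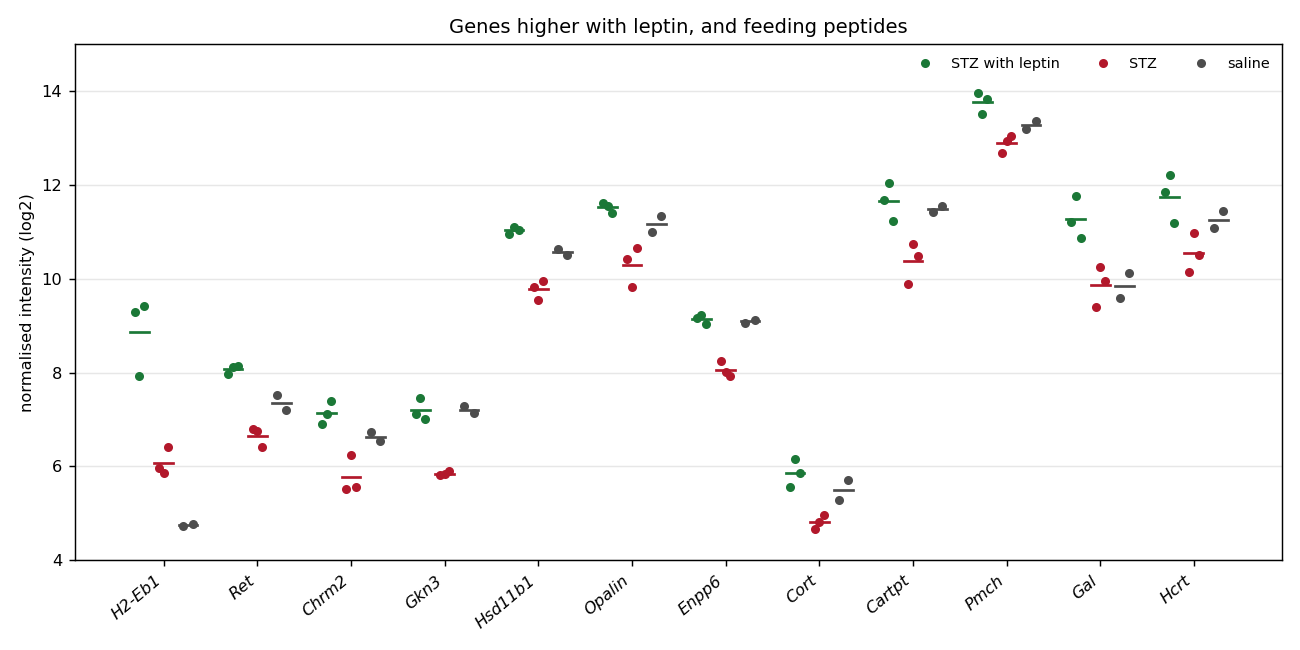
Normalised log2 intensity of 12 genes higher in STZ with leptin, 1 point an array and a bar at each group mean. For every gene leptin arrays lie above STZ arrays, and saline arrays lie near the leptin arrays in Enpp6 and Gkn3 but near the STZ arrays in Gal.

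Peptides of feeding circuits rose in part. In this list 0 of 21 measured members fell and 7 rose (median difference 0.49). Leaving out STZ array 3 or leptin array 7 gave 2, saline array 4 or 5 gave 4 and leptin array 6 gave 1 that rose. Pmch, the melanin-concentrating hormone of the lateral hypothalamus, stood at 13.95, 13.51 and 13.83 in STZ with leptin, 12.69, 12.92 and 13.04 in STZ and 13.20 and 13.35 in saline, 1.84-fold higher without overlap, and was lost without leptin array 6. Cartpt, an appetite-lowering peptide, stood at 11.68, 12.05 and 11.24 in STZ with leptin, 9.89, 10.74 and 10.49 in STZ and 11.41 and 11.54 in saline. Its 2 probes differed by 1.28 and 1.26, and it was lost without STZ array 3 or leptin array 6 or 7. Gal, galanin, stood at 11.20, 11.75 and 10.87 in STZ with leptin, 9.39, 10.26 and 9.95 in STZ and 9.59 and 10.12 in saline, with leptin above both other groups and STZ close to saline, and was lost without STZ array 3 or leptin array 6 or 7.

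Hcrt, orexin, stood at 11.84, 12.20 and 11.19 in STZ with leptin, 10.14, 10.98 and 10.51 in STZ and 11.08 and 11.44 in saline and was lost without STZ array 1 or 3, saline array 4 or 5 or leptin array 6 or 7. Npvf was at least 2.33-fold higher and lost without STZ array 1, 2 or 3, saline array 4 or 5 or leptin array 8. The neurotrophin Bdnf passed at its brightest probe (0.70 ± 0.14) and was lost without STZ array 2 or 3, saline array 4 or 5 or leptin array 6 or 7, and Grp (0.85 ± 0.17) without leptin array 6, 7 or 8. Of the 3 Bdnf probes only 1 passed, and the smallest difference among them was 0.08. Among the classical leptin targets of the arcuate nucleus, Npy was tested and did not pass (0.27 ± 0.35, adjusted p = 0.74 in limma). Pomc had 7.83, 8.37 and 8.22 in STZ with leptin, 6.69, 11.88 and 5.97 in STZ and 7.71 and 7.81 in saline, where STZ array 2 also held the other pituitary transcripts, and differed by -0.04 ± 1.25. Without that array Pomc differed by 1.81 (adjusted p = 0.0076 in limma). Agrp has no probe here, and no probe of Crh or of the leptin receptor Lepr passed the detection filter. Trh (0.31 ± 0.21), Avp (-0.44 ± 0.33), Oxt (0.27 ± 0.23), Sst (0.46 ± 0.22) and Mc4r (-0.05 ± 0.18) did not pass.

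Metabolic and housekeeping lists showed few calls. None of 22 insulin, IGF and PI3K genes, 46 respiratory chain genes, 34 ribosomal protein genes, 26 heat shock genes, 27 channel and transmitter receptor genes or 17 clock genes passed in limma, although 1 clock gene was lower without STZ array 3 and 1 respiratory chain and 1 channel gene were higher without STZ array 1. At an unadjusted p under 0.05 the counts in these lists, in the same order, were 3, 8, 0, 4, 2 and 3. A positive difference was seen in 38 of 46 respiratory chain genes (median 0.31) and 32 of 34 ribosomal protein genes (median 0.27). The median over all genes tested was 0.03. Respiratory chain medians from saline were 0.15, 0.28 and -0.10 in leptin arrays and -0.65, 0.06 and -0.03 in STZ arrays 1, 2 and 3. Ribosomal protein medians were 0.37, 0.44 and -0.01 in leptin arrays and -0.52, 0.41 and 0.14 in STZ arrays. STZ array 1 was lowest in both lists. Atf3, a stress-induced factor, differed by -1.36 ± 0.24 and was the immediate early gene, of 18, that passed, against 3 lower without STZ array 1. In neuroendocrine peptides Cort rose and the secretory granule chaperone Scg5 fell (-0.62 ± 0.14), of 20, and Scg5 was lost without STZ array 2 or 3, saline array 4 or 5 or leptin array 6 or 7. In receptors of metabolic signals Cckbr rose, and 2 receptors did without STZ array 1, while the brightest probe of Ntrk2 fell and was lost without STZ array 1, 2 or 3, saline array 4 or 5 or leptin array 6 or 7. In 27 lipid synthesis genes Insig2, a brake on cholesterol synthesis, rose by 1.13 ± 0.18 and its other probe differed by -0.19. Hk2, a hexokinase, differed by -1.03 ± 0.18 and Ppargc1a, a coactivator of mitochondrial genes, by -0.74 ± 0.14, neither in every fit: Hk2 was lost without leptin array 6, and Ppargc1a without STZ array 2 or leptin array 6 or 7. Hk2 was the only call among 24 glucose transport and glycolysis genes (4.17 percent). Ppargc1a was the only call among 19 genes of fatty acid oxidation and ketone use (5.26 percent). Both shares were near the 3.69 percent of all genes tested that fell.

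In the 114 steady genes with STZ near saline, 93 were higher with leptin, at a median of 1.31 above saline, and 21 lower, at a median difference of -1.32 from saline. Csrp1, a LIM domain protein, stood at 12.42, 12.52 and 12.46 in STZ with leptin, 6.63, 6.22 and 6.48 in STZ and 6.82 and 6.33 in saline, 65.0-fold higher. Sspn was at least 22.4-fold higher, Pdrg1 at least 29.0-fold and Cbwd1 at least 14.7-fold higher. Leptin arrays lay close together and far from both other groups in all 4. Eif2s3y, a Y-linked translation factor, was at least 12.8-fold higher, while the Y-linked Uty and Kdm5d differed by 0.41 ± 0.19 and 0.11 ± 0.21 and did not pass. Lower were Prkag2, a subunit of AMP-activated kinase, by at least 11.3-fold, and Arv1 and Yipf4 by at least 5.82-fold and at least 4.56-fold. These 114 genes lay on all 21 chromosomes, from 0.172 percent of the genes tested on chromosome 8 to 2.93 percent on chromosome 19, with 1 of 4 on the Y. Gdpd3, a phosphodiesterase of glycerophospholipids, stood at 4.65, 5.71 and 4.85 in STZ with leptin, 10.83, 11.49 and 11.34 in STZ and 10.19 and 10.33 in saline, with STZ above saline by 0.96 and leptin far below both.

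Probes of the same gene were then set against each other, as a description with no test. Of 2790 genes with at least 2 probes tested, 239 had 1 or more that passed: in 55 all probes passed one way, in 137 the others lay on the same side, in 45 on the other side, and in 2 probes passed both ways. With STZ array 1 left out 88 had all probes one way, with STZ array 2 or 3 left out 24, with leptin array 6 or either saline array left out 32 and with leptin array 7 left out 19. Those with others on the other side were 27 without STZ array 3 and 28 without leptin array 6. Pairs were formed from the passing probe with the largest shift of its gene, of at least 1 unit, and another probe detected on all 8 arrays. By this choice the other probe tends to show the smaller shift. The other probe showed at least 50 percent of the shift in 37 of 49 pairs (75.5 percent) with STZ away from saline. Of these 49 pairs 5 lay on opposite sides. With STZ near saline it did so in 9 of 59 pairs (15.3 percent), and lay on the opposite side in 19. The median shift of the passing probe was like in both classes, 1.41 near saline and 1.40 away, while that of the other probe was 0.22 and 1.02.

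Examples of disagreement were Mff, a mitochondrial fission factor, with 0.10 and 5.78, H2-T23, a class I-like gene, with -0.20 and 4.02, and Ercc5, a DNA repair nuclease, with -0.18 and 3.95, each from the brighter to the dimmer probe. Ntrk2, the receptor of BDNF, had -0.70, -0.71 and 2.54 and passed both ways. Agreement was seen in Slc11a1, an ion transporter of phagosomes, with -1.62, -1.92, -2.19 and -1.75, in Tnfaip2 with -2.62, -2.10 and -1.67 and, on the higher side, in Wdr46 with 2.00 and 1.78. The Wdr46 probe at 1.78 was detected on only 3 of the 8 arrays. The mice were of mixed strain and probe sequences were not used here, so whether differing alleles under a probe had a part in single-probe shifts was not tested. Of the genes named above Csrp1, Sspn, Pdrg1, Cbwd1, Eif2s3y, Prkag2, Arv1, Yipf4, Gdpd3, Il6st, P2ry12, H2-Aa and H2-Eb1 had 1 probe tested each, so no second probe stands beside these values. The same holds for Cckbr, Nfkbib and Slco1a4.

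**Figure D5:**
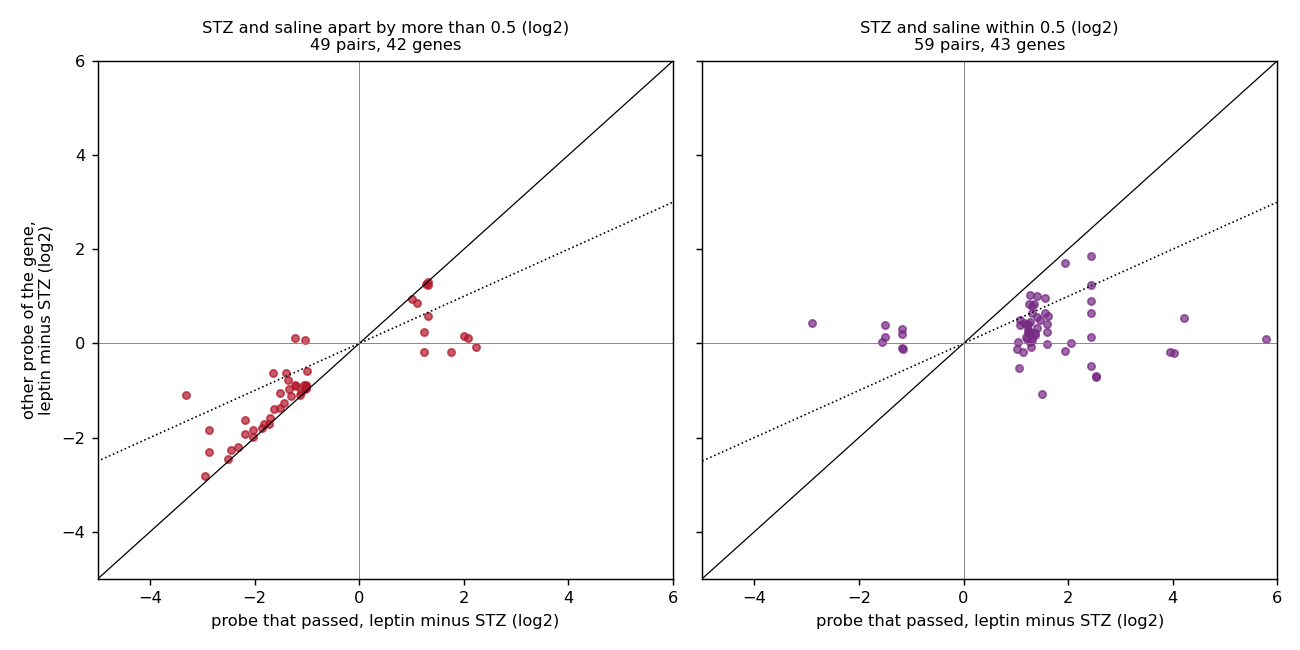
Leptin minus STZ log2 difference of the passing probe with the largest shift of a gene against that of another probe of the same gene, with STZ and saline more than 0.5 apart (49 pairs, 42 genes) and within 0.5 (59 pairs, 43 genes). The solid line is equality and the dotted line 50 percent of the shift. The other probe shows at least 50 percent of the shift in 37 of 49 pairs of the first panel, where 5 lie on the opposite side, and in 9 of 59 pairs of the second, where 19 do.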

How the data were processed

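Illumina bead arrays measured hypothalamic RNA of 8 mouse samples. The table the authors deposited without normalization holds a probe intensity and a detection p-value per array, and their second deposited table holds log2 values whose columns share 1 set of values; how it was made is not stated in the labels or the file. Raw intensities were background-corrected from the detection p-values (offset 16), quantile normalized and taken to log2 in limma 3.58.1 (R 4.3.3). Of 25697 probes, 15494 had a detection p under 0.05 on at least 2 arrays. Probes were named from the platform annotation (23978 with 1 symbol, 1719 with none), and a gene is its kept probe of highest mean signal. Group means were fitted over all 8 arrays with eBayes, Benjamini-Hochberg adjusted over all kept probes; the steps were tested on simulated data. The number of arrays limits the precision. A gene undetected in 1 whole group is given as a bound ("at least"): the mean of the brighter group against, per array, the higher of the lowest detected signal and the probe's own. Members and lists were chosen with earlier results of these data known. Genes named are the 12 lowest and 12 highest steady genes with STZ away from saline, the 6 lowest and 6 highest near it, up to 4 steady members a list and direction by p, a fixed set of hypothalamic genes, and genes whose probes disagree most; other members named were chosen after their values were seen. Replicate numbers of the descriptions were not used to pair samples in the main fit. Alternatives were the deposited log2 values, median centring, cyclic loess, no background correction, 2 other detection filters, only the groups compared, array weights, a robust trend, the replicate block, the mean of probes and each array left out.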

Additional observations from a re-analysis of the deposited data

How the results depend on the processing

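Of 182 named genes, the authors' deposited log2 values kept the direction and side of the threshold of 174, median centring 174, cyclic loess 171, no background correction 170, a robust trend 166, no detection filter 157, only the groups compared 154 and the replicate block 135. Leaving out 1 array kept 130 (STZ replicate 3) to 174 (STZ replicate 1). The probes passed (870, of which 336 higher and 534 lower) came to 1861 with array weights (750 and 1111). With detection under 0.01 on all arrays 552 passed (304 lower). Genes higher and lower (219 and 395) were 502 and 809 with array weights, and 236 were lower under the stricter detection. Leaving out 1 array gave 482 to 1215 probes, 200 to 400 higher and 282 to 815 lower, with 130 to 262 genes higher and 208 to 621 lower. Genes with all probes passing one way (55) were 34 with no detection filter, 32 with only the groups compared, 122 with array weights and 19 to 88 with 1 array left out; those with others on the other side (45) were 89 with no detection filter, 21 under stricter detection, 115 with array weights and 27 to 48 with 1 array left out. List members higher (22) and lower (111) were 39 and 184 with array weights, 72 lower under stricter detection, and 13 to 22 and 69 to 167 with 1 array left out. With the replicate block, 478 probes passed (178 higher, 300 lower), with 107 genes higher and 226 lower, 19 genes with all probes one way and 12 list members higher. Deviations of same-numbered leptin and STZ samples from their group means correlated at -0.06, -0.04 and 0.09, and those of differently numbered samples at -0.17 to 0.17. So few values, centred within small groups, cannot decide whether the numbers mark a pairing or a batch. The mean of all kept probes turned the sign of Ercc5 (1.89), H2-T23 (1.91), Mkks (-1.23), Ntrk2 (0.38) and Ttpal (-0.23), genes whose probes disagree, and leaving out STZ replicate 2 that of Pomc (1.81; with 1 array left out it ran from -1.15). The cause of the other changes was not tested.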

Other observations

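A few genes were split within a group, chosen here after their values were seen. A range above 3 log2 units within the group, with all other arrays within 1 unit, occurred in 16 of 10703 genes for the leptin arrays, 8 for the STZ arrays and 0 for saline. Zfp330 had 10.83, 10.65 and 4.77 in STZ with leptin, 10.77, 10.49 and 10.67 in STZ and 10.90 and 10.80 in saline. Epm2aip1 had 6.45, 11.10 and 6.31 in STZ with leptin, 11.08, 10.56 and 10.52 in STZ and 10.83 and 10.97 in saline. Fcer1g, the shared gamma chain of Fc receptors, had 11.95, 4.48 and 10.63 in STZ with leptin, 4.42, 4.43 and 4.52 in STZ and 4.52 and 4.53 in saline. Leptin array 8 alone stood apart in Zfp330, and leptin arrays 6 and 8 stood apart in Epm2aip1 and in Fcer1g. In STZ, the arginase gene Arg1 had 4.83, 4.53 and 5.23 in STZ with leptin, 6.81, 10.52 and 10.67 in STZ and 4.32 and 4.57 in saline and the chitinase-like Chil3 had 4.50, 4.59 and 4.47 in STZ with leptin, 6.28, 10.01 and 8.81 in STZ and 4.60 and 4.35 in saline, with STZ array 1 the lowest of its group in both.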
